A study of Mus musculus with 8 samples.

Results

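Acta2, Tagln, Cnn1, Myh11, Mylk, Smtn, Cald1, Tpm2, Tpm4 and Myl9 are genes of the contractile apparatus that smooth muscle cells carry and that fibroblasts take up in part when they become myofibroblasts. The 10 genes were taken from a list. Each was matched to a single locus of the deposited transcript annotation, which holds 35299 loci, and all 10 were among the 19186 loci tested. Long RNA was sequenced from the heart border zone of 8 C57BL/6J mice, 12 weeks old, with poly(A) selection. The border zone is the rim of muscle next to an infarct, or the corresponding place in a sham-operated heart. Of the animals, 4 had a sham operation (Sham) and 4 a myocardial infarction (MI), in which heart muscle dies when its blood supply is cut, and tissue was taken 2 weeks after surgery. No transgene or drug is named for either group, and the way the infarct was made is not given in the sources used here.

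In smooth muscle, calcium bound to calmodulin switches on myosin light chain kinase, which phosphorylates the regulatory light chain of myosin and lets the myosin heavy chain pull on actin filaments. Tropomyosin lies along these filaments, and calponin, transgelin, caldesmon and smoothelin bind to them. In the heart, genes of this set are known from the walls of coronary vessels. The set is not specific to these walls, since Tpm4 is known mainly from the cytoskeleton of cells outside muscle. Caldesmon and the kinase also have forms of other cells. After an infarct, myofibroblasts that pull the scar together are known for alpha smooth muscle actin in stress fibres. Many of these genes are targets of serum response factor (SRF), which binds the CArG box, a motif in which CC and GG flank a run of A and T bases.

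The libraries held 108345923 to 190192607 reads in loci, with all 4 MI libraries deeper than all 4 Sham libraries. Groups follow the sample titles and the treatment field. Other label fields conflict with them: the source field names Sham for the MI samples too, and the descriptions of 3 MI samples and 1 Sham sample name the other operation. The Sham titles alone carry a remark of reanalysis, so where the libraries came from and what the operation did cannot be told apart. On the leading principal component (61.9% of the variance) MI replicate 2 stood at 34.8, against 62.4 to 63.2 in the other MI libraries and -65.2 to -42.6 in Sham. MI replicate 3 held RNA of skeletal muscle, with values given beside Tpm2. The heart label was checked on 6 cardiomyocyte markers with a locus of their own (Actc1, Tnnc1, Myl2, Myl3, Ryr2, Actn2), which summed to 3681965 to 4520119 normalised reads in Sham and 2810448 to 3360156 in MI.

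In the infarcted hearts 7 of the 10 genes rose, 1 fell and 2 did not pass the test. Over all tested loci 40.9% passed, of which 20.8% rose and 20.1% fell as shares of all tested (limma, Benjamini-Hochberg adjusted p under 0.05). The rises were of Cnn1, Tagln, Cald1, Tpm4, Acta2, Myl9 and Tpm2, with MI means between 1.42 and 2.41 times the Sham means. Smtn fell, and the smooth muscle myosin heavy chain Myh11 and the kinase Mylk stood at 0.809 and 0.897 times their Sham means. The median log2 difference of the 10 genes was 0.56, against -0.02 over all tested loci. Sham and MI values did not overlap for 7 of the 10 genes, 6 with MI above Sham and 1 below, where the groups did not overlap for 39.6% of all tested loci (19.7% above, 20% below). Without MI replicate 2 the count was also 7 higher and 1 lower, and without MI replicate 3 it was 6 and 1. In bulk tissue, more cells of a type and more RNA per cell cannot be told apart.

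**Figure D1:**
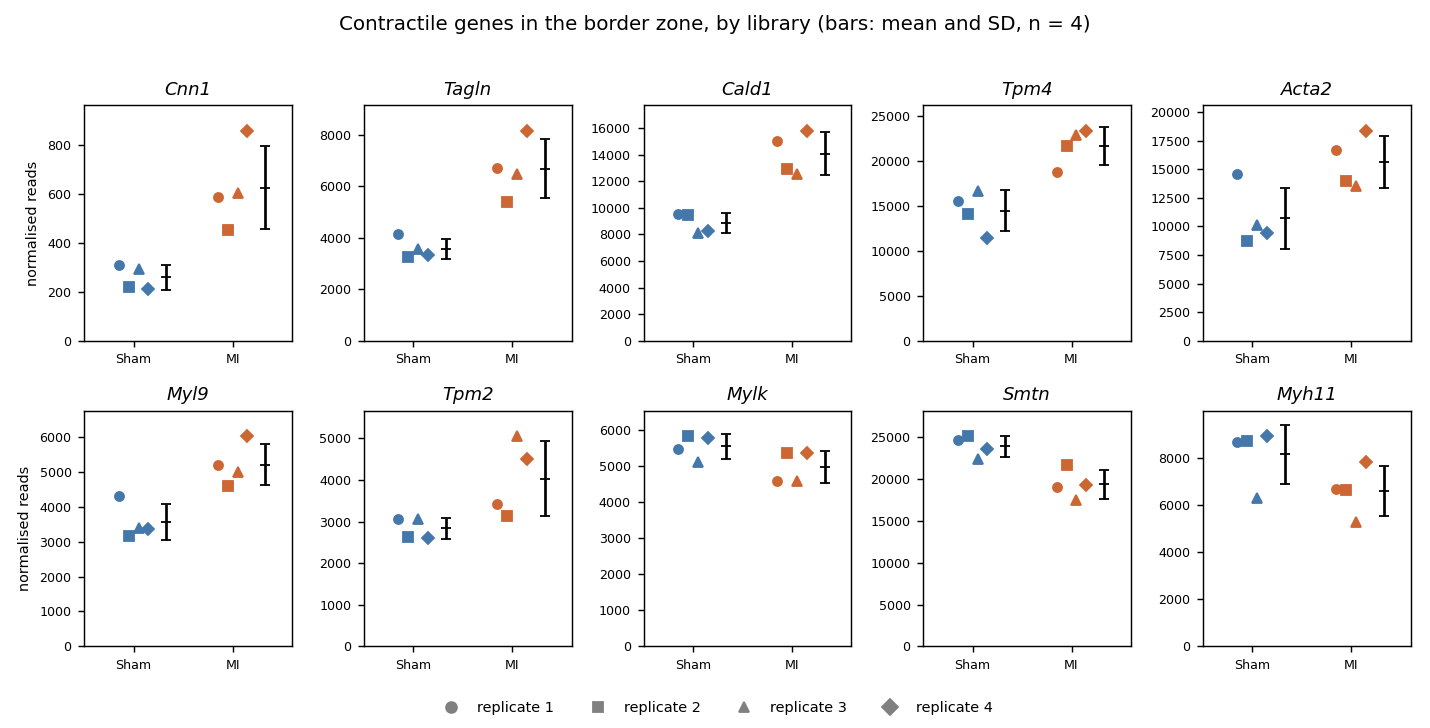
Normalised reads (vertical axes, linear, from 0) of the 10 contractile genes in each Sham (blue) and MI (orange) library. Symbols give the replicate number and black bars the mean and SD of 4 libraries, and panels run from the largest rise, Cnn1, to Myh11. Values of Sham and MI overlap for Acta2, Mylk and Myh11.

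Values are normalised reads, that is, reads of a locus divided by the size factor of the library. Log2 differences are MI minus Sham on log2(value + 1) with the moderated standard error, and every adjusted p of a gene is from limma over all tested loci. The fewest reads behind any of these values were 133, for Cnn1.

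Among the filament genes, Acta2 encodes alpha smooth muscle actin, the classical marker of smooth muscle and myofibroblasts (mm9 chromosome 19, 34314827 to 34330143, minus strand, 9 exon blocks). It stood at 14552, 8691, 10101 and 9432 normalised reads in Sham replicates 1 to 4 and at 16637, 13991, 13508 and 18363 in MI replicates 1 to 4. Sham replicate 1 was the exception in its group and lay above MI replicates 2 and 3, so the groups overlap. Acta2 rose, with a log2 difference of 0.57 ± 0.16 (adjusted p = 0.0145). Leaving out Sham replicate 1 gave 0.72, the highest value of the fits that left out 1 library, and leaving out Sham replicate 2 gave 0.48, the lowest. The actin coded by Acta2 is close to those of other actin genes: the longest open reading frame was 99.5% identical in amino acids to that of Actg2, 98.4% to Actc1, 97.9% to Acta1, 94.1% to Actg1 and 93.9% to Actb. By exact match they remain distinct, as none of the 2096 windows of 100 bases in GENCODE transcripts of Acta2 occurs unchanged in a transcript of another gene. How the counting treated reads with mismatches is not given in the sources used here.

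Tropomyosins Tpm2 and Tpm4 differ in where they are known to act, beta tropomyosin (Tpm2) in smooth and slow skeletal muscle and Tpm4 mainly in the cytoskeleton of cells outside muscle. Tpm4 (chromosome 8, 74659191 to 74677028) stood at 15619, 14130.3, 16708 and 11497 in Sham and at 18807, 21657, 22956 and 23403 in MI. Every MI library lay above every Sham library (log2 difference 0.59 ± 0.12, adjusted p = 0.0024). Of 2104 such windows of Tpm4, 155 (7.37%) also occur in the predicted gene Gm7809, so a part of its reads has no unique origin.

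For Tpm2 (chromosome 4, 43527583 to 43536260) the values were 3063, 2622, 3051 and 2613 in Sham and 3418, 3140.0, 5046 and 4503 in MI. MI replicates 3 and 4 were well above the rest, while MI replicates 1 and 2 lay just over the highest Sham library. The log2 difference was 0.48 ± 0.14 (adjusted p = 0.0205). This rise did not pass without MI replicate 3 (0.36, limma adjusted p = 0.0520), MI replicate 4 (0.42, adjusted p = 0.0600), Sham replicate 2 (0.45, adjusted p = 0.0537) or Sham replicate 4 (0.44, adjusted p = 0.0539).

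Skeletal muscle also expresses Tpm2, and MI replicate 3 carried transcripts of it. The 8 skeletal muscle markers summed to 215 to 339 normalised reads in Sham, and in MI replicates 1 to 4 to 348, 426, 13519 and 361. Myh1, a fast skeletal myosin heavy chain, stood at 3098 in MI replicate 3 and at 33.8 or less in each other library. Myh4, another of these chains, stood at 2716 there, at 6.59 in MI replicate 2 and at 0 in the other 6 libraries, where 0 allows up to 3 reads or 1.99 to 4.73 normalised reads by counting error alone. MI replicate 4, whose Tpm2 value was also high, had no such excess. Of this marker list 1 of 8 rose, the fast skeletal troponin T gene Tnnt3 (2.92 ± 0.74, adjusted p = 0.0095, and 1.99 without MI replicate 3). The part of skeletal muscle RNA in the Tpm2 value of MI replicate 3 was not tested.

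**Figure D2:**
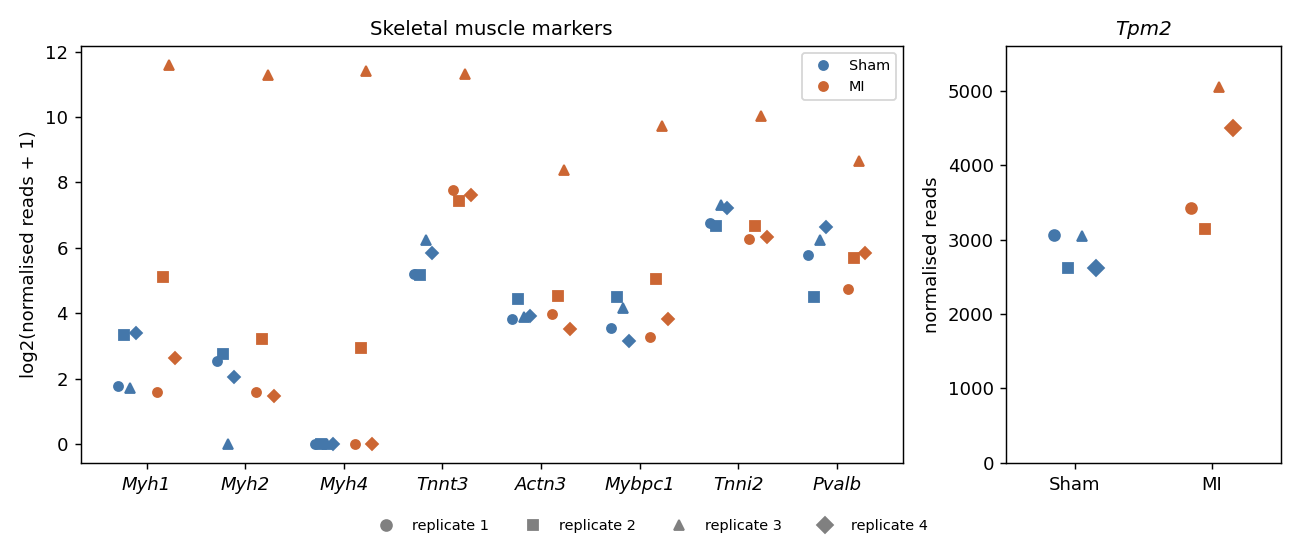
Left, log2(normalised reads + 1) of 8 skeletal muscle markers in each Sham (blue) and MI (orange) library; right, normalised reads of Tpm2 on a linear axis from 0. Symbols give the replicate number; MI replicate 3 (triangle) lies above all other libraries for each marker and for Tpm2, at 5046.

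Of the proteins bound along the filament, Cnn1, calponin, a brake on actomyosin and a marker of differentiated smooth muscle, showed the largest change of the 10 genes and the lowest level (chromosome 9, 21903725 to 21914074). It stood at 312, 221, 294 and 209.7 in Sham and at 589, 454, 602 and 858 in MI. The lowest MI library was above the highest Sham library. Its log2 difference was 1.25 ± 0.20 (adjusted p = 7.26e-04), or 2.41 times the Sham mean.

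Tagln encodes transgelin, also called SM22 alpha, a small actin-bundling protein related to calponin (chromosome 9, 45737711 to 45743981). Its values were 4131, 3239, 3559 and 3338 in Sham and 6695, 5381, 6454 and 8149 in MI. The groups lay apart, and the rise was 0.89 ± 0.12 (adjusted p = 2.98e-04), 1.87 times the Sham mean. Transgelin and calponin were 43.0% identical over the aligned part of their reading frames.

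Cald1, caldesmon, which holds back myosin on the actin filament and exists in a long smooth muscle form and a short form of other cells, lies on chromosome 6 (34548056 to 34725469). It was measured at 9529, 9476, 8098 and 8285 in Sham and 15036, 12913, 12507 and 15792 in MI. These groups did not overlap either (0.67 ± 0.09, adjusted p = 3.54e-04). The 7 transcripts of the locus were counted together, so the forms could not be told apart.

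The one fall was of Smtn, smoothelin, a protein of stress fibres known from contractile smooth muscle (chromosome 11, 3417526 to 3439242). Its level was 24614, 25085, 22319 and 23518 in Sham against 19076, 21625, 17424 and 19310.1 in MI, with every MI library below every Sham library. The log2 difference was -0.31 ± 0.08 (adjusted p = 0.0096). This call depended on how libraries were scaled: the difference was 0.0017 with scaling to the library total and -0.11 with scaling to the total without mitochondrial loci, neither of which passed (limma adjusted p = 0.988 and 0.282).

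In the motor, Myh11 encodes the smooth muscle myosin heavy chain, the most restricted marker of mature smooth muscle among the 10 genes (chromosome 16, 14193399 to 14291456, 43 exon blocks). It stood at 8689, 8708, 6279 and 8909.8 in Sham and at 6662, 6625, 5256 and 7809 in MI. Sham replicate 3 fell below the other Sham libraries and below 3 of the 4 MI libraries. The log2 difference was -0.31 ± 0.14 and did not pass (adjusted p = 0.101). Without Sham replicate 3 it was -0.43 and passed (limma adjusted p = 0.0182), and with scaling to the library total it was 0.0015.

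Myl9, the regulatory light chain that is phosphorylated in contraction (chromosome 2, 156600245 to 156608293), rose. Its levels were 4307, 3155, 3379 and 3349 in Sham and 5201, 4602, 4995 and 6009 in MI. Sham replicate 1 was the highest of its group here too, though below all MI libraries (0.56 ± 0.11, adjusted p = 0.0027). Myl12a and Myl12b, whose coded light chains are 94.2% and 93.6% identical to that of Myl9, share 1 locus of the annotation and were not separable.

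Mylk, the kinase that phosphorylates this light chain (chromosome 16, 34745296 to 35002520), did not pass the test. The values were 5467, 5831, 5110.1 and 5797 in Sham and 4587, 5364, 4600.4 and 5359.6 in MI. MI replicates 2 and 4 lay within the Sham range. Its log2 difference was -0.16 ± 0.08 (adjusted p = 0.139), and with scaling to the library total it was 0.15. The locus also spans telokin and the long non-muscle form of the kinase, which are made from the same gene.

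**Figure D3:**
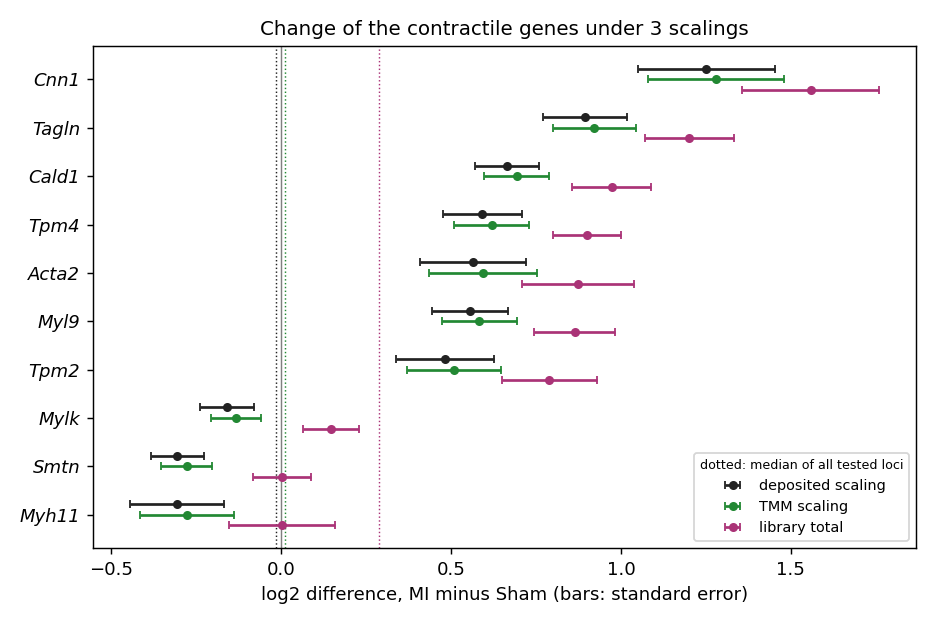
Log2 difference of each contractile gene, MI minus Sham (horizontal axis; points with standard errors), with the deposited scaling (black), TMM scaling (green) and scaling to the library total (purple); dotted lines mark the median of all tested loci under each. The 7 genes from Cnn1 to Tpm2 lie above their dotted line under all 3 scalings, while Smtn moves from -0.31 to 0.0017 and Myh11 from -0.31 to 0.0015 with the library total.

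Scaling to the library total shifted the median of all tested loci by 0.30, and scaling to the total without mitochondrial loci by 0.19, so all directions above are relative to the deposited scaling. The 7 rises passed under each of these scalings and under TMM scaling. Their log2 differences with the library total ran from 0.79 for Tpm2 to 1.56 for Cnn1.

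Ratios of 2 genes within a library do not depend on the scaling. The log2 ratio of Acta2 to Myh11 was 0.74, -0.0028, 0.69 and 0.08 in Sham and 1.32, 1.08, 1.36 and 1.23 in MI, a difference of 0.87 ± 0.21. Every MI library was higher than every Sham library. The same held for Tagln to Myh11 (difference 1.20 ± 0.19) and Cnn1 to Myh11 (1.56 ± 0.29), so Acta2, Tagln and Cnn1 gained on the heavy chain gene whatever the scaling. The non-muscle myosin heavy chain Myh10, 75.3% identical to that of Myh11 in its coded protein, also gained on it, from a log2 ratio of -0.18 ± 0.18 (SD, n = 4) to 0.80 ± 0.13. For these 4 ratios the exact permutation p was 0.0286 (2-sided), the smallest that 4 against 4 libraries can give. After Benjamini-Hochberg adjustment over the 6 ratios computed it was 0.0429. All 4 share Myh11 as the divisor, so they are not 4 independent results. Tpm4 to Tpm2 (0.11 ± 0.14, exact permutation p = 0.457) and Tagln2 to Tagln (-0.14 ± 0.12, exact permutation p = 0.314) had overlapping groups and did not pass (adjusted p = 0.457 and 0.377). Tagln2, the transgelin of cells outside smooth muscle, rose by 0.75 ± 0.12 (limma adjusted p = 7.34e-04).

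**Figure D4:**
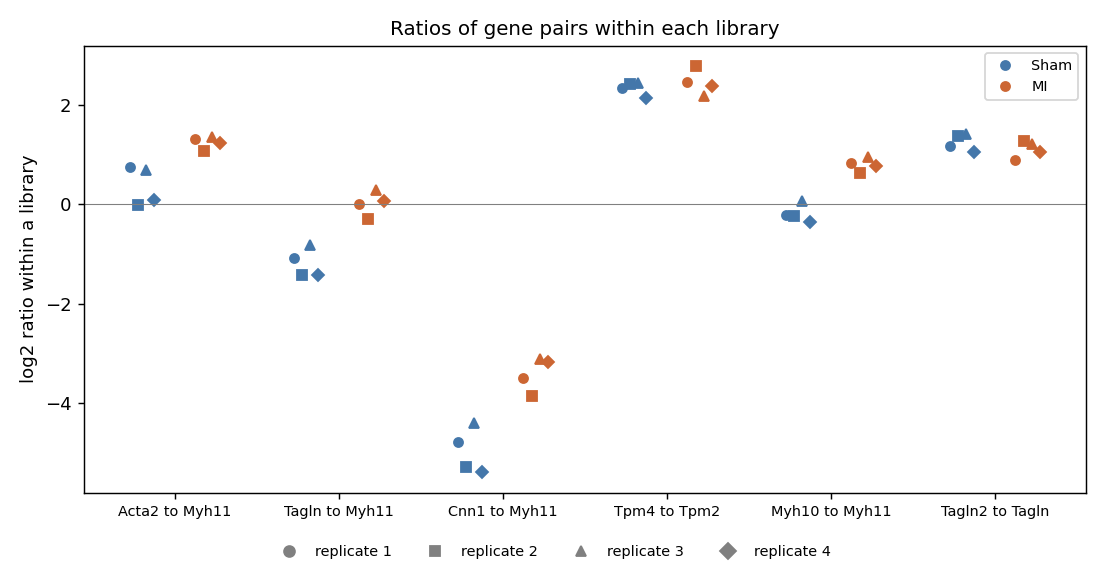
Log2 ratio of 2 genes within each library (vertical axis) for 6 gene pairs, in Sham (blue) and MI (orange), with symbols for the replicate number. For the 4 ratios to Myh11 the MI libraries lie above all Sham libraries, with differences of 0.87, 1.20, 1.56 and 0.98; the groups overlap for Tpm4 to Tpm2 and Tagln2 to Tagln.

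Levels per length of exon set the genes in order. In Sham, Tpm4 (6959 ± 1084 normalised reads per kilobase, mean ± SD, n = 4) and Smtn (6045 ± 312) were highest and their ranges overlapped. Acta2 (3751 ± 924), Tagln (2501 ± 280.1) and Cald1 (1518 ± 131) followed. The ranges of Cald1, Tpm2 (1304 ± 117) and Myl9 (1207 ± 176) overlapped from each to the next. Below them came Myh11 (924 ± 142), Mylk (517 ± 31.4) and, far lower, Cnn1 (109 ± 21.7). In MI the order was the same except that Acta2 (5481 ± 802) stood before Smtn (4899.7 ± 437), and the ranges of Acta2, Smtn and Tagln (4677 ± 799) overlapped from each to the next. There Tpm4 (10425 ± 994) no longer overlapped the next gene, and Cnn1 (264 ± 71.2) was still lowest. These lengths join the exons of all transcripts of a locus, and the order of Smtn depended on that choice. Per kilobase of the longest transcript, Smtn (7045) stood above Tpm4 (6959) in Sham, and in MI Smtn (5711) stood above Acta2 (5481), so that Acta2 did not move ahead of it.

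MI replicate 4 was the highest MI library for 7 of the 10 genes, and Sham replicate 1 the highest Sham library for 6. MI replicates 2 and 3 were each the lowest MI library for 4 genes, yet MI replicate 2 was highest for Mylk and Smtn and MI replicate 3 for Tpm2. The summed marker levels of pericytes, fibroblasts, activated fibroblasts, endothelial cells, cardiomyocytes and macrophages were all highest in MI replicate 4 among the MI libraries. Among the Sham libraries, those of activated fibroblasts, endothelial cells and macrophages were highest in Sham replicate 1. For activated fibroblasts the sums were 745806 in MI replicate 4 (472218 to 732546 in the other MI libraries) and 87638 in Sham replicate 1 (39179 to 70849 in the other Sham libraries). The part of these cells, or of a trait of the library, in the contractile gene values was not tested.

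Over 8 libraries, the pattern most like that of Acta2 among the 10 genes was that of Myl9, by a root mean square difference of 0.10 between log2 values, each gene centred on its own mean. Outside the 10 genes, 11822 named loci with a mean of at least 100 were compared by the same measure. The 3 nearest to Acta2 were Pla2g15 (0.10), a lysosomal phospholipase, Tspan9 (0.10), a tetraspanin, and Sh3bp1 (0.10). Nearest to Cnn1 were Fcgr1 (0.08), a macrophage receptor for antibody, Igfbp6 (0.10), a binding protein of insulin-like growth factors, and Rac2 (0.10), a GTPase of blood cells. The nearest of the other 9 contractile genes, Tagln, stood at 0.22. A search over 11822 loci finds closer patterns than a search over 9 genes by number alone, so distances from the 2 searches cannot be compared. Among those nearest to Myh11 were Erbb3 (0.10), a receptor kinase, and Zfp759 (0.10), with Mylk at 0.17.

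Promoters are shown for Acta2 and for Myl9, the gene of the 10 nearest to it in pattern, and for Cnn1, the gene with the largest change. RefSeq promoters (GRCm38.p6, another build than the mm9 of the files) were at hand for 8 of the 10 genes, 9 promoters in all, and not for Myh11 and Tagln. Printed are the 250 bases before the transcript start, 5′ to 3′ on the gene's strand. Capitals mark the CArG box, exact or with 1 mismatch, which reads alike on both strands. They cover chr19:34255374-34255623 (minus strand) for Acta2, chr2:156775214-156775463 (plus strand) for Myl9 and chr9:22099003-22099252 (plus strand) for Cnn1.
Acta2: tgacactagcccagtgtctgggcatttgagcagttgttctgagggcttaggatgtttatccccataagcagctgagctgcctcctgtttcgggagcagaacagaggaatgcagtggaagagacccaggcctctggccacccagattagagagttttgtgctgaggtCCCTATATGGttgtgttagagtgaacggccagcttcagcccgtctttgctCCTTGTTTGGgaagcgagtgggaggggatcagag
Myl9: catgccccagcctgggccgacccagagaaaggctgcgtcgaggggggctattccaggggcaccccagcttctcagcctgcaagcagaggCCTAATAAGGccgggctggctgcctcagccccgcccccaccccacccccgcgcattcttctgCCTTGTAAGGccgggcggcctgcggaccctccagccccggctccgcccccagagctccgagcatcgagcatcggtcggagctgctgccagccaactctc
Cnn1: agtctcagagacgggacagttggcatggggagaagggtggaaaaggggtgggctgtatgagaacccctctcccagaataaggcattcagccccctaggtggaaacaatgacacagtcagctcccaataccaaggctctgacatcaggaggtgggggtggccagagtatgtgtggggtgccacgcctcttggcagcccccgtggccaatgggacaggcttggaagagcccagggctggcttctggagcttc
The window of Myl9 holds 1 exact box, at 161 to 152 bases before the start, and 1 with a mismatch at 99 to 90. That of Acta2 holds 2 with 1 mismatch each, at 84 to 75 and 34 to 25 bases before the start, and that of Cnn1 none. An exact box occurred in 1 of the 9 promoters (11.1%) and in 482 of all 32851 RefSeq promoters (1.47%). With 1 mismatch allowed, the shares were 3 of 9 (33.3%) and 18.6%, the third being a promoter of Cald1. A match is a description of the letters and not a measured binding site.

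Around the 10 genes, 20 other genes listed for the smooth muscle cytoskeleton went both ways: 8 rose, 5 fell and 7 did not pass (median log2 difference 0.19). With scaling to the library total the counts were 13 higher and 1 lower, and with the total without mitochondrial loci 11 and 1. Of all 19186 tested loci, 20.8% rose and 20.1% fell, and the library total turned their counts from 3999 and 3855 to 8525 and 1498. Those that rose most were Fbln5 (1.77 ± 0.13, adjusted p = 7.50e-06), Actg2 (1.76 ± 0.20, adjusted p = 9.45e-05) and Actn1 (1.10 ± 0.07, adjusted p = 3.84e-06). Fbln5 encodes the elastic fibre protein fibulin-5, which is not a part of the cytoskeleton though it is in this list. Actg2 encodes the smooth muscle gamma actin of the gut and Actn1 an actin crosslinker. For Actg2 the levels were low, 83.5 ± 22.7 in Sham and 281 ± 48.4 in MI. Lmod1, leiomodin of smooth muscle, had a difference of -0.12 ± 0.16 (adjusted p = 0.591; named after its value was seen).

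Of 19 tested transcription regulators of smooth muscle, 4 rose and 2 fell (median 0.03), beside 20.8% and 20.1% of all tested loci. The list counts were 11 and 1 with the library total and 6 and 1 without mitochondrial loci in the total. The largest changes were of Tcf21, a factor of epicardial cells and fibroblasts (1.03 ± 0.25), Elk3, an SRF partner (0.60 ± 0.18, adjusted p = 0.0231), and Foxo4 (-0.53 ± 0.07). The call of Elk3 ended without Sham replicate 2 or 3 or MI replicate 1 or 4, at 0.50 to 0.53. Named after their values were seen, Srf itself (-0.10 ± 0.11, adjusted p = 0.517) and its smooth muscle and heart coactivator Myocd (-0.10 ± 0.15, adjusted p = 0.634) did not pass. Of the related coactivators, Mrtfa rose (0.46 ± 0.09, adjusted p = 0.0025), and Mrtfb stood at -0.19 ± 0.10 and did not pass (adjusted p = 0.150).

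Among 19 tested genes of contraction signalling, 2 rose and 3 fell (median 0.10), beside 20.8% and 20.1% of all tested loci. This balance turned with the scaling, as did that of all tested loci. The list counts were 13 higher and 1 lower with the library total and 6 and 1 without mitochondrial loci in the total. Kcnma1, the pore of the large-conductance potassium channel, rose from 18.7 ± 4.49 to 148 ± 37.3 normalised reads (2.91 ± 0.25, adjusted p = 1.83e-05). Agtr1a, the angiotensin II receptor (-0.67 ± 0.09, adjusted p = 3.47e-04), and Ppp1r12b, a targeting subunit of myosin phosphatase (-0.40 ± 0.09, adjusted p = 0.0067), fell. With scaling to the library total Ppp1r12b stood at -0.09 and did not pass.

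Striated and non-muscle relatives of the 10 genes divided as well, with 8 of 17 tested higher and 3 lower (median 0.47), beside 20.8% and 20.1% of all tested loci. Skeletal alpha actin, Acta1, rose from 31546 ± 15237 to 187601 ± 77230.3 (2.61 ± 0.35, adjusted p = 2.73e-04). Of the kinases related to Mylk, the skeletal Mylk2 rose (3.00 ± 0.27, adjusted p = 2.37e-05) and Mylk4 fell (-1.38 ± 0.19, adjusted p = 2.64e-04). MI replicate 3, which held skeletal muscle RNA, stood at 218968 for Acta1 and 202 for Mylk2. In the other MI libraries Acta1 ran from 118948 to 282078 and Mylk2 from 110 to 176. The part of skeletal muscle RNA in these values was not tested. The cytoplasmic actins stood at 0.50 ± 0.17 for Actb, which rose (adjusted p = 0.0359), and 0.47 ± 0.19 for Actg1, which did not pass (adjusted p = 0.0665). Cardiac actin, Actc1, had a difference of -0.10 ± 0.15 (adjusted p = 0.611).

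Markers of other cells differed from list to list, beside the 20.8% of all tested loci that rose and the 20.1% that fell. Their counts, medians and sums are given under the deposited scaling only. Scaling to the library total shifted the median of all tested loci by 0.30, more than the endothelial (0.12) and pericyte (0.14) medians. All 10 markers of activated fibroblasts rose (median 3.21), from summed levels of 39179 to 87638 in Sham to 472218 to 745806 in MI, with Cthrc1, Lox and Thbs4 changing most (6.02, 4.18 and 4.17). Of 10 fibroblast markers 9 rose (median 0.85; sums 243853 to 266963 and 328928 to 412746), among them Mfap5, Lum and Col15a1 (3.00, 1.81 and 1.76). All 7 macrophage markers tested rose (median 0.79; sums 20134 to 29111 and 35534 to 44827), Fcgr1, Adgre1 and C1qb most (1.23, 1.06 and 0.94). Of 10 pericyte markers 3 rose and 1 fell (median 0.14; sums 197577 to 222816 and 170726 to 197687). These included Mcam (0.77 ± 0.11) and Cspg4 (0.60 ± 0.20, adjusted p = 0.0322), which rose, and Abcc9 (-0.99 ± 0.12), which fell. Abcc9 alone went from 75056 ± 9572 to 37969 ± 5574 normalised reads, a large part of the pericyte sums. Of 8 endothelial markers 1 fell, Flt1 (-0.52 ± 0.11), and none rose (median 0.12; sums 146691 to 181516 and 152197 to 176749). Of the 6 cardiomyocyte markers 3 fell, Myl2, Myl3 and Ryr2 (-0.68, -0.53 and -0.67). The calls of Cspg4 (0.47 to 0.61) and Ryr2 (-0.64 to -0.55) ended in 5 of the 8 fits that each left out 1 library, those without Sham replicate 2 or 4 or MI replicate 1 or 4 and, for Cspg4, Sham replicate 3 or, for Ryr2, MI replicate 3. The part of each cell type in the contractile gene values was not tested.

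**Figure D5:**
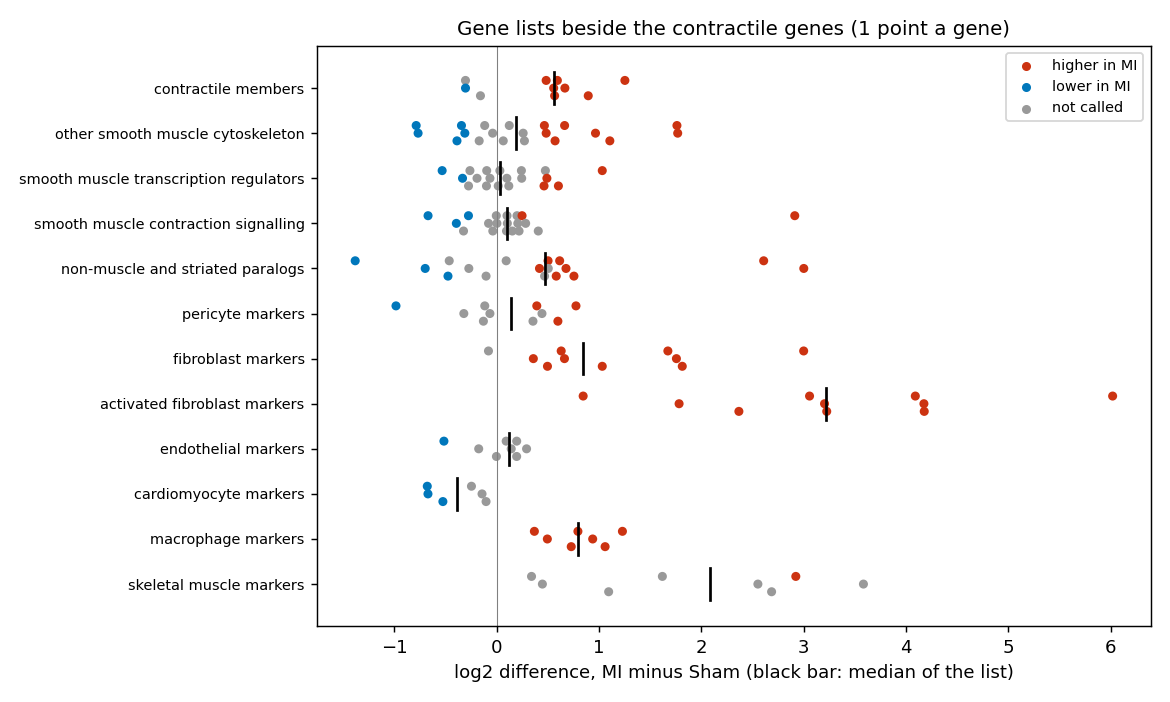
Log2 difference, MI minus Sham (horizontal axis), of each tested gene in 12 lists; red points rose, blue points fell and grey points did not pass limma at an adjusted p of 0.05, and black bars are list medians. The contractile genes have a median of 0.56, and the nearest list medians are those of the non-muscle and striated paralogs (0.47) and of macrophage markers (0.79).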

How the data were processed

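The authors deposited 1 table of normalised signal per locus for 8 libraries (4 Sham, 4 MI) and a transcript annotation. The submitters' processing notes list mm9, HTSeq (0.5.4p2), DESeq, Cufflinks (2.0.2) and TopHat2 (2.0.5), without settings, roles or strandedness. Within a library all values were whole multiples of 1 step (within 0.000001, 100% of values), so reads were recovered (108345923 to 190192607 per library).

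Loci were named by intron lengths shared in order with GENCODE M21 genes. The coordinates printed for loci are those of the deposited annotation, and none was carried between builds. All introns of 9 of the 10 genes matched, and 17 of 18 for Cald1, and none of their loci held another named gene. The main test was limma 3.58.1 (R 4.3.3) with an intensity trend on log2(value + 1), MI against Sham, 2-sided, over 19186 loci with a mean of at least 10; p-values were adjusted by Benjamini and Hochberg and called under 0.05; the pseudocount understates changes of low loci. It was tested on simulated data. Alternatives were other pseudocounts, filters and scalings, edgeR 4.0.16 and DESeq2 1.42.0 on recovered reads, each library left out, and a replicate block. Ratios were compared by exact permutation tests (scipy 1.17.1).

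The genes and lists were chosen with earlier results of these data known. Genes named beside the 10 were, per list, the 3 that passed with the largest log2 difference in size (the smallest p if none passed). Also named were both genes of each ratio, relatives over 90% identical in the coded protein, the 3 nearest in pattern to Acta2, Cnn1 and Myh11 (1 of those for Myh11 is not reported here), and unannotated loci within 10 kb with a mean of at least 10. Older symbols were matched through RefSeq. Of the list members, Elk1, Rhoa, Rhob, Tpm3, Myl6, Myl12a, Myl12b, Calml3, Myh6, Tnnt2, Tnni3, Pln and Cd68 had no locus of their own here. Where nothing says how animals were housed or processed, p-values measure the spread between these 4 and 4 samples.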

Additional observations from a re-analysis of the deposited data

Results flagged for a closer look

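For Myh11, Sham replicate 3 stood at 6279 normalised reads, far from the 8689 to 8909.8 of the other Sham libraries. Without it the log2 difference was -0.43 (limma adjusted p = 0.0182) in place of -0.31. For Tnnt3, MI replicate 3 stood at 2574 against 172 to 219 in the other MI libraries, the library that also held the skeletal myosins. The gap to the nearest library was 0.916 of the range of the 4 values for Myh11 and 0.981 for Tnnt3. Chance gives this in about 1 of 20 groups, and 2 of 90 groups looked at met it. Some genes given in the text were not among these groups, so the count does not cover all of them. Of those left out, Myh1 and Myh4 stood at 3098 and 2716 in MI replicate 3, against 33.8 or less in the other MI libraries. Carmn stood at 26.1 in Sham replicate 3, against 63.3 to 67.8 in the other Sham libraries.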

How the results depend on the processing

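Under 18 alternatives the rises of Cnn1, Tagln, Cald1, Tpm4, Acta2 and Myl9 kept direction and passed throughout. Tpm2 lost its call in 4 fits that left out a library. Smtn turned to 0.0017 with the library total and lost its call outside chrM.

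The count of members higher was 7 in every alternative but 4 of the left-out fits, ranging from 6 to 7 there. The count lower was 0 with both total scalings, 2 with the replicate block and 1 to 2 with a library left out. Loci higher and lower numbered 3999 and 3855, and 8525 and 1498 with the library total and 6368 and 2145 outside chrM. Over the 4 related lists 22 genes rose and 13 fell, with 47 and 5 under the library total and 32 and 6 outside chrM; leaving out a library gave 19 to 24 and 9 to 14. With 1 library left out the ratio differences ran from 0.74 to 0.99 for Acta2 to Myh11, 1.11 to 1.32 for Tagln, 1.42 to 1.75 for Cnn1 and 0.93 to 1.07 for Myh10, where an exact permutation p cannot go below 0.0571. Per length of the longest transcript, the Sham levels of Mylk, Smtn and Cald1 were 711, 7045 and 1935. With 1 mismatch allowed the CArG shares were 33.3% and 18.6%.

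The replicate numbers did not pair the samples: same-numbered deviations correlated at 0.15, 0.27, 0.16 and -0.00092, and Sham replicate 1 was closest to MI replicate 4 (0.28). With the replicate as a block 7 members rose and 2 fell, Myh11 now among them (-0.31, limma adjusted p = 0.0081), and 4152 loci rose and 4056 fell. The cause of these changes was not tested.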

Other observations

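Several genes lie within 10 kb of the 10 genes, and those given here, apart from the unannotated locus, were chosen after their values were seen. Stambpl1, on the opposite strand and ending 9 bases from the end of Acta2, rose by 0.58 (317 ± 48.6 to 475 ± 81.8 normalised reads, limma adjusted p = 0.0127). Car9, on the opposite strand with an overlap of 94 bases at the end of Tpm2, rose by 1.28 (87.0 ± 18.0 to 211 ± 29.9, adjusted p = 4.40e-04). Selenom, 172 bases from Smtn on the opposite strand, rose by 0.59 (adjusted p = 0.0010) while Smtn fell. Pcsk7, which overlaps Tagln by 95 bases on the opposite strand, stood at 3192 ± 42.8 in Sham and 3242 ± 159 in MI (adjusted p = 0.820). Nde1, 195 bases from Myh11 on the opposite strand, had a difference of -0.12 (adjusted p = 0.218). The non-coding E130310I04Rik lies on the opposite strand within Mylk and stood at 242 ± 34.6 and 183 ± 31.8 (-0.41, adjusted p = 0.0632). Strandedness of the counting is not given, so reads of overlapping genes cannot be told apart. The unannotated locus within 10 kb with a mean of at least 10, on chromosome 6 at 34727891 to 34730025 beside Cald1, stood at 18.2 ± 6.61 and 17.1 ± 6.67 (-0.10, adjusted p = 0.858). Carmn, a non-coding RNA known from smooth muscle, stood at 0.12 ± 0.37 (adjusted p = 0.826; named after its value was seen).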
